A study of Mus musculus with 2 samples.

Results

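CD301b-low cDC2s are the type 2 conventional dendritic cells of mouse skin-draining lymph nodes (dLNs) that bound the least antibody to the lectin CD301b. The cells were taken by the class that the authors deposited for each cell, which they set from surface antibody values, and 2128 of the 11067 cells with mRNA values belonged to it. They were 658 of 3471 cells in the naive library and 1470 of 7596 in the papain library, and each of them carried the same class in the antibody file and in the mRNA file. They were compared with the 2486 CD301b-intermediate and the 3600 CD301b-high cDC2s of the same libraries. The mice were C57BL/6N (B6) animals. One group was naive (unimmunized), and the other had received ovalbumin (OVA) with papain, a protease allergen, in both rear footpads 1 day before. Live MHCIIhi CD11c+ B220- cells were sorted and run as CITEseq, in which mRNA and DNA-tagged antibodies are counted in the same droplet with 10x Genomics 3′ v3 chemistry. By the study's methods the papain cells came from popliteal nodes and the naive cells from pooled skin-dLNs, whereas the protocol text attached to each library speaks of popliteal nodes and the tissue label of skin draining lymph node. The node sampled and the immunization therefore cannot be told apart. The methods give 1 age range for mice of all strains, young adults of both sexes, but the number of animals behind each library is not given in the sources used here. Each condition is 1 library, so no test between cells or conditions was made. The intervals printed after levels and log2 ratios are 95% intervals that cover counting error only.

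Conventional DCs of type 2 (cDC2s) carry the receptor CD172a (encoded by Sirpa), present antigen on MHC class II to CD4+ T cells, and depend on transcription factors such as IRF4. In skin-draining nodes many of them are migratory: they leave the skin with the chemokine receptor CCR7 and arrive in the node mature. CD301b, encoded by Mgl2, is a C-type lectin that marks the dermal migratory cDC2s known for priming Th2 cells, so the cells with little CD301b are the other side of that divide within the same lineage.

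The class rested on antibodies that are read by a short DNA tag, and the tags of the antibodies that separated the classes are printed here because they are what was sequenced. CD301b set the level within cDC2s, CD172a marked cDC2s, XCR1 marked cDC1s, CD326 marked Langerhans cells (LCs), and I-A/I-E reads MHC class II. In the last pair of lines the capitals mark a tag that is listed with identical letters for CD11b and CD24.
CD301b: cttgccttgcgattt
CD172a: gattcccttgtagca
XCR1: tccattacccacgtt
CD326: acccgcgttagtatg
I-A/I-E: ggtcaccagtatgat
CD11b: TATATCTTTGCCGCA
CD24: TATATCTTTGCCGCA
Because of the shared tag, CD11b and CD24 cannot be separated in these data. The ratio of the CD24 to the CD11b count had a median of 0.848 in naive and 0.870 in papain CD301b-low cells, and it lay between 0.829 and 0.870 in all 10 class and library groups. Neither value is used further.

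By antibody the class was what its name says, which the class rule fixes. The median CD301b value, as a natural log, was 0.295 in naive and 0.319 in papain CD301b-low cells, against 1.18 and 1.22 in the intermediate cells and 2.13 and 2.28 in the high cells. At the border, the highest CD301b-low cell read 0.732 among naive and 0.734 among papain cells, and the lowest intermediate cell 0.735 and 0.325. Median CD172a was 1.51 and 1.74 in CD301b-low cells, a little under the 1.73 and 1.98 of CD301b-high cells. XCR1, at 0.146 and 0.109, and CD326, at 0.577 and 0.408, were low. Surface MHC class II differed little between the classes, with medians of 5.43 and 5.20 in the low against 5.49 and 5.01 in the high cells. CD8a, part of the panel whose surface markers the authors clustered, had a higher median in the low than in the high class. It was 0.630 against 0.361 in the naive and 0.403 against 0.273 in the papain library. XCR1, CD103, Ly-6C and CD64 were also higher in low cells of both libraries, such as CD103 at 0.131 against 0.0840 in papain cells. Median antibody totals were smaller in low cells, at 5570 against 8299 and 2462 against 4296. Their part in these shifts was not tested. Of the 2749 naive cDC2s with antibody values 34.7% (33.0 to 36.6) were CD301b-low, and of the 6726 papain ones 23.6% (22.6 to 24.7). Of these cells, 68.9% of the 955 naive and 92.5% of the 1589 papain cells also had mRNA values, so the naive class was sampled less fully.

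Unique molecular identifiers (UMIs), each counting 1 captured transcript, were summed over the cells of a class and given as CPM, the usual per-million share of all UMIs of the sum. Per cell, CD301b-low cDC2s were shallower than CD301b-high cDC2s, with a median of 12751 against 15167 UMIs in the naive and 11351 against 16181 in the papain library. The sums held 9227667 and 18052190 UMIs for the low class. The median share of mitochondrial UMIs was 3.87% and 3.16%. A UMI of a T or B cell gene was present in 16.9% of naive and 12.8% of papain low cells, against 7.36% and 6.12% of high cells. Conjugates and doublets were not removed. The libraries shared 2 barcodes, and 0 of those were CD301b-low cells.

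Of the genes given with the class, Cd80, H2-Ab1 and Ccnd2 were at least 1.5-fold higher in CD301b-low than in CD301b-high cDC2s of both libraries, and Sirpa was that much lower in the papain library only (log2 ratio −0.46 in naive and −0.62 in papain cells). Cd80, a ligand of CD28 and CTLA-4 on T cells, stood at 88.8 CPM (82.8 to 95) in low, 56.8 in intermediate and 45.8 CPM (42.0 to 49.9) in high naive cells. Among papain cells Cd80 stood at 87.0, 72.0 and 55.4 CPM in the same order, and the log2 ratio of low to high was 0.95 (0.79 to 1.12) and 0.65 (0.56 to 0.74). Ccnd2, which encodes cyclin D2, was at 52.3, 31.2 and 23.6 CPM in naive and at 86.0, 39.1 and 28.0 CPM in papain low, intermediate and high cells. Sirpa was at 82.8, 92.3 and 113 CPM and at 52.4, 62.1 and 80.8 CPM, so its mRNA ran in the same order as the CD172a antibody. Mgl2 mRNA was at 15.2, 59.1 and 56.1 CPM in the naive library and at 0.831, 0.476 and 1.21 CPM in the papain library, where its UMIs were too few to order the classes.

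**Figure D1:**
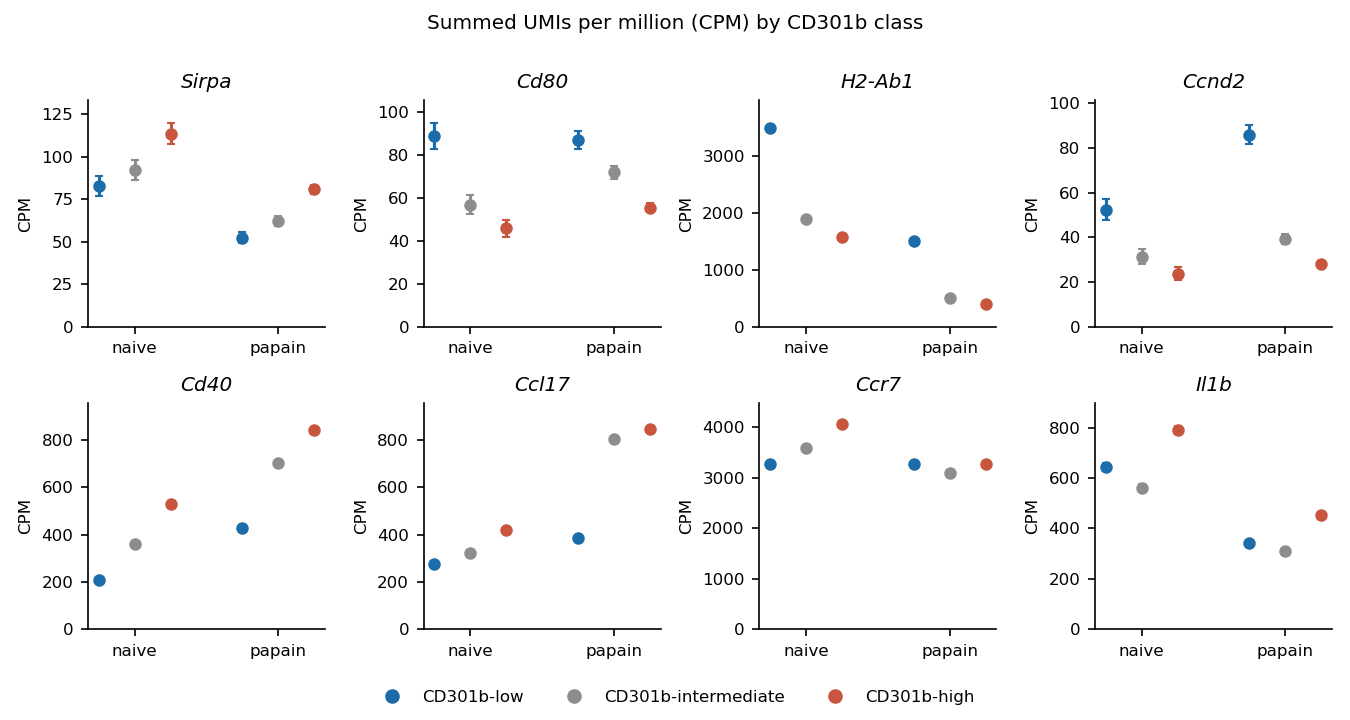
Level in CPM (y axis, from 0) of Sirpa, Cd80, H2-Ab1, Ccnd2, Cd40, Ccl17, Ccr7 and Il1b in CD301b-low, intermediate and high cDC2s of the naive and the papain library. Points are the CPM of summed UMIs of 1 library each and bars are 95% Poisson intervals. Cd80, H2-Ab1 and Ccnd2 step down and Cd40 steps up from low to high in both libraries, while Ccr7 in papain cells lies between 3096 and 3276 CPM in all 3 classes.

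Against CD301b-high cDC2s, 284 genes (5.77%) were at least 1.5-fold higher and 269 (5.47%) at least 1.5-fold lower in naive CD301b-low cells, of 4922 genes with a mean of at least 20 CPM over the compared groups. In the papain library 135 genes (2.75%) were higher and 187 (3.81%) lower, of 4914. The distance to the intermediate class was smaller. It amounted to 142 genes (2.87%) higher and 84 (1.7%) lower in the naive library, and to 81 (1.65%) higher and 75 (1.53%) lower in the papain library. Of 4551 genes over the floor in both libraries, 64 (1.41%) were higher and 103 (2.26%) lower than in CD301b-high cells in each. The intermediate class lay between the other two for 62 naive and 61 papain levels of those 64 genes, and for 95 and 102 levels of those 103.

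The genes lowest in CD301b-low cells relative to CD301b-high cells were led by Ehf, an ETS-family transcription factor. Ehf was at 70.9 CPM (65.5 to 76.5) in low, 163 in intermediate and 232 CPM (223 to 241) in high naive cells, and at 39.6, 92.2 and 132 CPM in papain cells. The log2 ratio was −1.71 (−1.84 to −1.59) and −1.73 (−1.84 to −1.62). Within each of the authors' mRNA clusters that held at least 20 cells of both classes, Ehf was also lower in the low cells, in 5 of 5 naive and 9 of 9 papain clusters. Cells with an Ehf UMI were 28.4% of low and 59.8% of high naive cells once each cell was thinned to 8392 UMIs (34.8% and 68.2% before). The thinned share was 16.4% and 42.7% in the papain library (19.6% and 54.0% before). LCs, with a median of 10767.5 and 18290 UMIs, had thinned shares of 7.78% and 13.1%, and cDC1s, with a median of 15806.5 and 12399 UMIs, of 8.62% and 12%. Before thinning the papain low share was near that of LCs (19.6%) and cDC1s (17.9%), and thinned it was above both. Whether any of these shares is background was not tested. The thinning left out 87 naive and 264 papain low cells and 55 and 137 high cells.

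Apol7c, an apolipoprotein L gene of DCs, was among the most abundant of the genes that were lower. It stood at 843 CPM in low, 1620 in intermediate and 2338 in high naive cells and at 1351, 2607 and 3516 CPM in papain cells. Cxcl1, a neutrophil chemokine, was at 106, 227 and 291 CPM and at 172, 414 and 514 CPM, a log2 ratio of −1.46 and −1.58. Both genes were lower in the low cells of every cluster compared (5 naive and 9 papain), as were Nup62, Fgl2, Pvr and Txnrd1. Pvr encodes CD155, a ligand of the T cell receptors DNAM-1 and TIGIT, and was at 134, 215 and 283 CPM in naive and at 135, 234 and 310 CPM in papain cells. Fgl2, a fibrinogen-like protein, was at 67.7, 120 and 162 CPM and at 100, 172 and 212 CPM. Plat, which encodes tissue plasminogen activator, was at 11.6, 22.4 and 31.1 CPM and at 29.1, 62.9 and 85.5 CPM. In every one of these genes the low class was lowest and the intermediate class in the middle. Sod3, Fxyd2, Nup93, Tubb6, Tnf, Spic and Cd40 completed the 15 genes taken from this end, with log2 ratios between −1.40 and −0.97 over both libraries. Tubb6 belongs to the tubulins, whose 3′ reads can be split between near-identical copies.

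Cd40, the receptor through which CD4+ T cells license DCs, followed the same order. In naive cells it was at 206 CPM (197 to 215) in low, 361 in intermediate and 529 CPM (516 to 542) in high cells. In papain cells it was at 430 CPM (420 to 439), 702 and 844 CPM (836 to 852). The log2 ratio of low to high was −1.36 for naive and −0.97 for papain cells. Thinned, 53.6% of low and 80.5% of high naive cells had a Cd40 UMI (62.6% and 87.6% before), and 78.4% and 93.2% of papain cells (82.6% and 96.7% before). Weighting the high class to the cluster makeup of the low class left a log2 ratio of −0.59 and −0.45, the papain ratio being under 1.5-fold. The difference in Cd40 was thus smaller at matched makeup.

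At the other end stood Ly6e, Grasp and H2-DMb2. Grasp, a scaffold protein of receptor trafficking, was at 143 CPM (135 to 151) in low, 53.9 in intermediate and 33.5 CPM (30.2 to 37.0) in high naive cells and at 181, 75.3 and 43.6 CPM in papain cells, a log2 ratio of 2.09 and 2.06. It was higher in the low cells of 5 of 5 naive and 7 of 8 papain clusters. Ly6e, a small surface protein induced by interferon, was at 113, 25.4 and 6.39 CPM and at 36.1, 6.63 and 4.77 CPM. It was concentrated in a few clusters: low cells of the naive mRNA clusters 5 and 7 held 265 and 587 CPM, and those of the other clusters with at least 20 low cells held from 3.01 to 19.9 CPM. Tcf7, the transcription factor TCF-1 best known from T cells and their progenitors, was at 61.8, 28.2 and 25.3 CPM and at 95.4, 49.8 and 34.6 CPM, and was higher in low cells in 5 of 5 naive and 8 of 9 papain clusters. Napsa, an aspartic protease of lysosomes, was at 142, 70.2 and 60.9 CPM and at 54.1, 26.0 and 21.0 CPM, and was higher in all 5 and all 9 clusters. Siglecg, an inhibitory sialic acid receptor, was at 33.9, 16.2 and 14.0 CPM and at 65.6, 30.7 and 25.1 CPM. Lrp8, a receptor for reelin and apolipoprotein E, was at 47.1, 21.5 and 17.8 CPM and at 74.4, 23.7 and 20.6 CPM. Ly86, which encodes the MD-1 partner of RP105, was at 143, 87.2 and 65.2 CPM and at 144, 91.6 and 63.4 CPM. Gpr65, Cd24a and Tctex1d2 were the others at this end, beside Ccnd2 and the MHC class II genes H2-Ab1, H2-DMa, H2-DMb1 and H2-DMb2. Grasp, Ly6e and Tcf7 were also found in other DCs, here as thinned shares of naive and papain cells. Grasp was in 41.5% and 48.1% of low cells, 71.3% and 73.4% of LCs and 28.1% and 37.8% of cDC1s. Ly6e was in 16.2% and 9.28% of low cells, 4.12% and 2.93% of LCs and 17.4% and 16.3% of cDC1s. Tcf7 was in 28.0% and 41.5% of low cells, 28.1% and 24.2% of LCs and 32.4% and 30.9% of cDC1s.

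**Figure D2:**
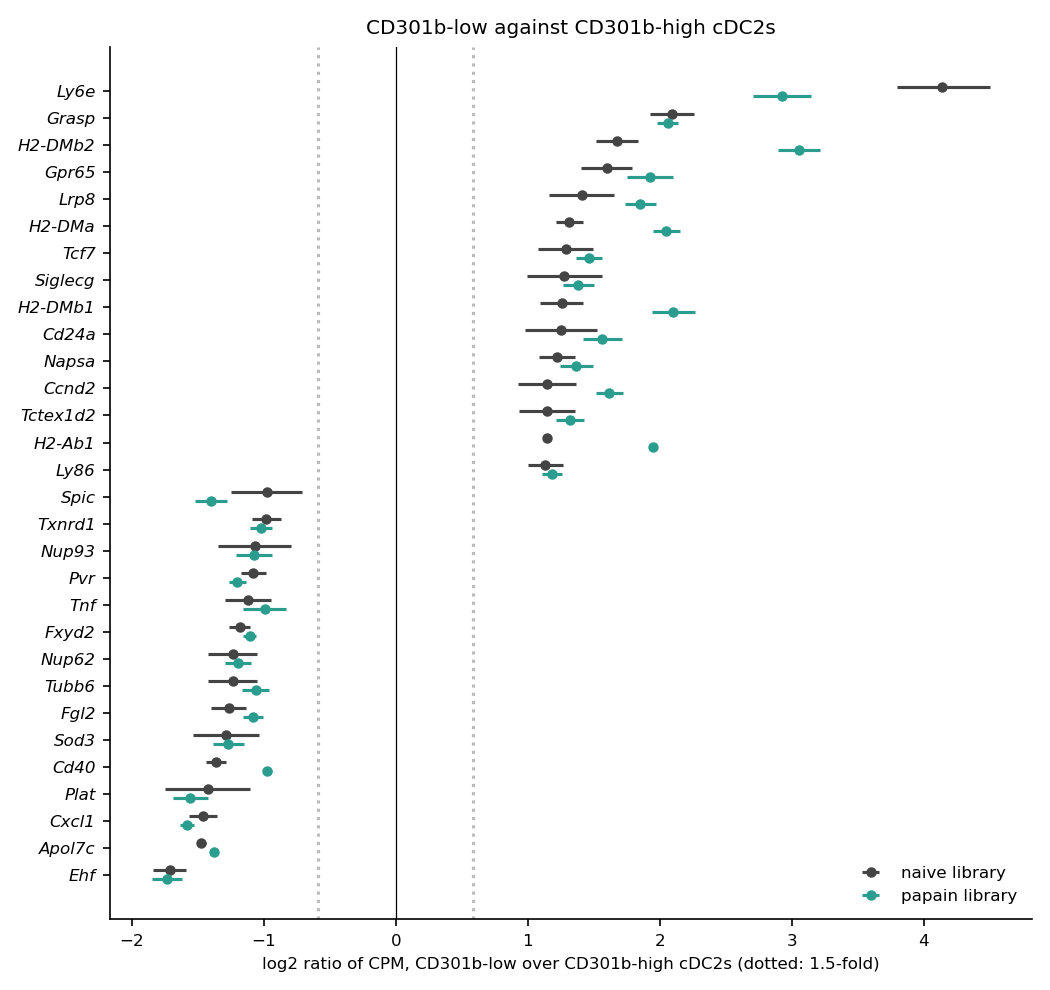
Log2 ratio of CPM in CD301b-low over CD301b-high cDC2s (x axis) for the 15 highest and 15 lowest genes named by rule, in the naive and the papain library. Points are ratios of 1 library each, bars are 95% counting intervals, and dotted lines mark 1.5-fold. Ehf lies at −1.71 and −1.73 and Grasp at 2.09 and 2.06, and for each gene both libraries lie on the same side of 0, as the rule required.

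MHC class II genes were higher in CD301b-low than in CD301b-high cells of both libraries, and the intermediate cells lay nearer to the high ones. They encode the peptide-binding chains (H2-Aa, H2-Ab1, H2-Eb1), the invariant chain Cd74, the peptide editors H2-DM and H2-O, and CIITA, their coactivator. Of 16 listed genes, 12 were over the floor in the naive comparison with CD301b-high cells, of which 8 were higher and 0 lower (5.77% and 5.47% of all genes tested), with a median log2 ratio of 0.99 (0.03 over all genes). In the papain library 7 of 10 were higher and 0 lower (2.75% and 3.81% of all genes), with a median of 1.40 (−0.01 over all genes). H2-Ab1 was at 3498 CPM (3460 to 3537) in low, 1896 in intermediate and 1585 CPM (1562 to 1608) in high naive cells, and at 1516, 510 and 393 CPM in papain cells. H2-Aa was at 4531, 3051 and 2905 CPM and at 3049, 1393 and 1205 CPM. H2-Eb1 was at 4353, 2722 and 2431 CPM and at 2816, 1200 and 1016 CPM. Cd74 differed less, at 10630, 8268 and 8477 CPM and at 7324, 4542 and 4185 CPM. Ciita was at 78.3, 39.6 and 29.6 CPM and at 34.1, 9.53 and 5.20 CPM. H2-DMa was at 251, 139 and 101 CPM and at 106, 36.9 and 25.7 CPM. H2-DMb2 was at 125, 57.2 and 39.2 CPM and at 70.8, 14.6 and 8.52 CPM, and its near-identical copy H2-DMb1 at 99.4, 54.2 and 41.6 CPM and at 44.5, 16.1 and 10.4 CPM. Reads may be split between these copies. H2-Oa, the H2-O α chain, was at 61.8, 21.0 and 11.1 CPM in naive cells. The cathepsin S gene Ctss, which acts on the invariant chain in lysosomes, stood at 592, 601 and 584 CPM and at 585, 582 and 619 CPM, within 1.5-fold. All cells had been sorted on high surface MHC class II.

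Class II promoters carry the X box and Y box elements through which CIITA acts, and 110 bases upstream of the start are shown for 3 of the genes that were higher, from RefSeq on GRCm38.p6, each on the strand of its gene. The capitals mark ATTGG, the core of the Y box, and AGNAACNG, a core of the X box, searched on both strands. Neither motif overlaps the other.
H2-Aa: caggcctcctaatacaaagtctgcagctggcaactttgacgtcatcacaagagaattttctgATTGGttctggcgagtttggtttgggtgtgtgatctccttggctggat
H2-Eb1: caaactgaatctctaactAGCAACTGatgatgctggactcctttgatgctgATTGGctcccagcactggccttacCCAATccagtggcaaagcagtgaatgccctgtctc
H2-DMb1: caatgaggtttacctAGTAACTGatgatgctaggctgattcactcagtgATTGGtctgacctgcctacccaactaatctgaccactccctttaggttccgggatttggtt
They lie at chr17:34287824-34287933 on the minus strand for H2-Aa, and on the plus strand at chr17:34305757-34305866 for H2-Eb1 and chr17:34153081-34153190 for H2-DMb1. In H2-Eb1 and H2-DMb1 the X box core stands upstream of the Y box, and the H2-Aa stretch holds no match to AGNAACNG. Of 32851 promoters of 300 bases (250 before and 50 after the start), 37.4% hold ATTGG, 17.4% hold AGNAACNG and 6.51% hold both. H2-DMb2, also higher and not printed, holds ATTGG but no AGNAACNG in its 300 bases. H2-DMa, also higher and not printed, has a start with neither motif and a start with only ATTGG, at −198. These matches describe the letters of the promoters and say nothing of binding in these cells.

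The high class II mRNA was unevenly spread over CD301b-low cells. Per cell, H2-Ab1 had a median of 231 CPM in naive low cells and a 90th percentile of 10857 CPM, against 157 and 4992 CPM in high cells. In papain low cells the median was 147 and the 90th percentile 5679 CPM, against 57.4 and 859 CPM in high cells. The medians were thus much closer than the upper tails.

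The authors' clusters of the mRNA values show where that tail lies. Cluster numbers run within a library and do not match between libraries, and the values by cluster are a description, since the clusters were made from the same mRNA. Naive CD301b-low cells were spread over cluster 4 (26.7%), clusters 3 and 5 (21.7% each), cluster 2 (12.5%), cluster 1 (10.6%) and cluster 7 (5.17%). CD301b-high cells were mostly in clusters 1 (40.5%) and 2 (29.1%), and only 4.53%, 5.52% and 0.566% of them were in clusters 4, 5 and 7. CD301b-low cells were 64.5% of the cDC2s of cluster 4, 58.1% of cluster 5 and 68.0% of cluster 7. In the papain library, cluster 4 held 35.9% of low and 1.73% of high cells, and 527 of its 671 cDC2s (78.5%) were CD301b-low. Clusters 7 (12.9%), 6 (12%), 3 (11.4%) and 9 (10.1%) held most of the remaining papain low cells.

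**Figure D3:**
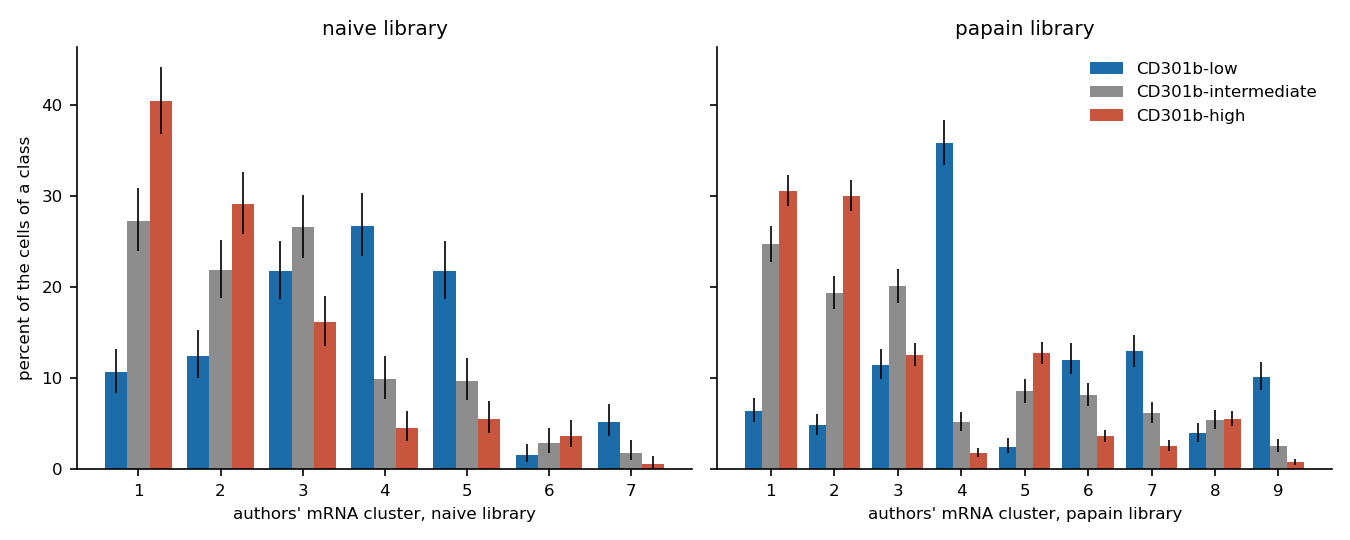
Percent of the cells of each class (y axis, from 0) that lay in each of the authors' mRNA clusters (x axis), for CD301b-low, intermediate and high cDC2s, in the naive and the papain library; bars are shares and lines are 95% Clopper-Pearson intervals. Naive clusters 4, 5 and 7 and papain clusters 4, 7 and 9 hold a larger share of low than of high cells (35.9% against 1.73% in papain cluster 4).

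Naive cluster 5 held the class II-rich cells. Its 143 low cells had 9981 CPM of H2-Ab1 and 729 CPM of H2-DMa, against 484 to 2056 and 33.1 to 145 CPM in the other clusters. The same cells were lowest in Ccr7, at 1662 CPM against 2122 to 5015 CPM, and in Fscn1, the actin bundler of mature DCs, at 426 CPM. They held Lyz2 (2185 CPM), Il1b (1675 CPM), Ccl4 (715 CPM), Clec7a (560 CPM), Plac8 (295 CPM), Cd209a (173 CPM) and most of the Mgl2 (54.3 CPM) of the class. Sirpa was highest in them too, at 189 CPM. Without cluster 5, the log2 ratio of low to high for H2-Ab1 in the naive library was 0.09 in place of 1.14, the class II list had 3 of 11 genes higher with a median of 0.01, and Napsa had 0.09 in place of 1.22. Cd40 (−1.17), Ehf (−1.48) and H2-DMa (0.55) kept their directions, and Sirpa went to −1.23. At equal cluster makeup 1 of 12 class II genes was higher in the naive library, with a median of 0.12, and 5 of 11 in the papain library, with a median of 0.56. H2-DMb1 turned to −0.04 in the naive library. Both alternatives were chosen after the data were seen.

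The other clusters rich in low cells differed from it. Low cells of naive cluster 4 had 13925 CPM of Ccl5, a chemokine for T cells and monocytes, with 484 CPM of H2-Ab1, 135 CPM of Cd40 and 3814 CPM of Ccr7. The 34 low cells of naive cluster 7 held T cell transcripts, Trbc2 at 316 and Cd3e at 130 CPM, beside 219 CPM of Tcf7, 587 CPM of Ly6e and 259 CPM of Ccnd2. In papain cluster 4, the largest, the summed low cells held 3305 CPM of H2-Ab1 together with 4376 CPM of Ccr7. Whether single cells were high in both was not tested. The low cells of this cluster also led in Ccnd2 (196 CPM), Lrp8 (192 CPM), Asprv1 (114 CPM), Cd1d1 (285 CPM), Cd200 (452 CPM), Isg15 (604 CPM) and Il1b (768 CPM). They had little Ccl22 (400 CPM) and Ccl17 (88.5 CPM). Papain cluster 7 had 2208 CPM of H2-Ab1, 543 CPM of Tubb2b, 166 CPM of Tcf7, 158 CPM of Cd80 and 118 CPM of Cd8a. Papain cluster 9 had 15912 CPM of Ccl5, 106 CPM of Cd40 and 934 CPM of Fscn1. The lowest Ccr7 among papain low cells was that of cluster 6, at 799 CPM.

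**Figure D4:**
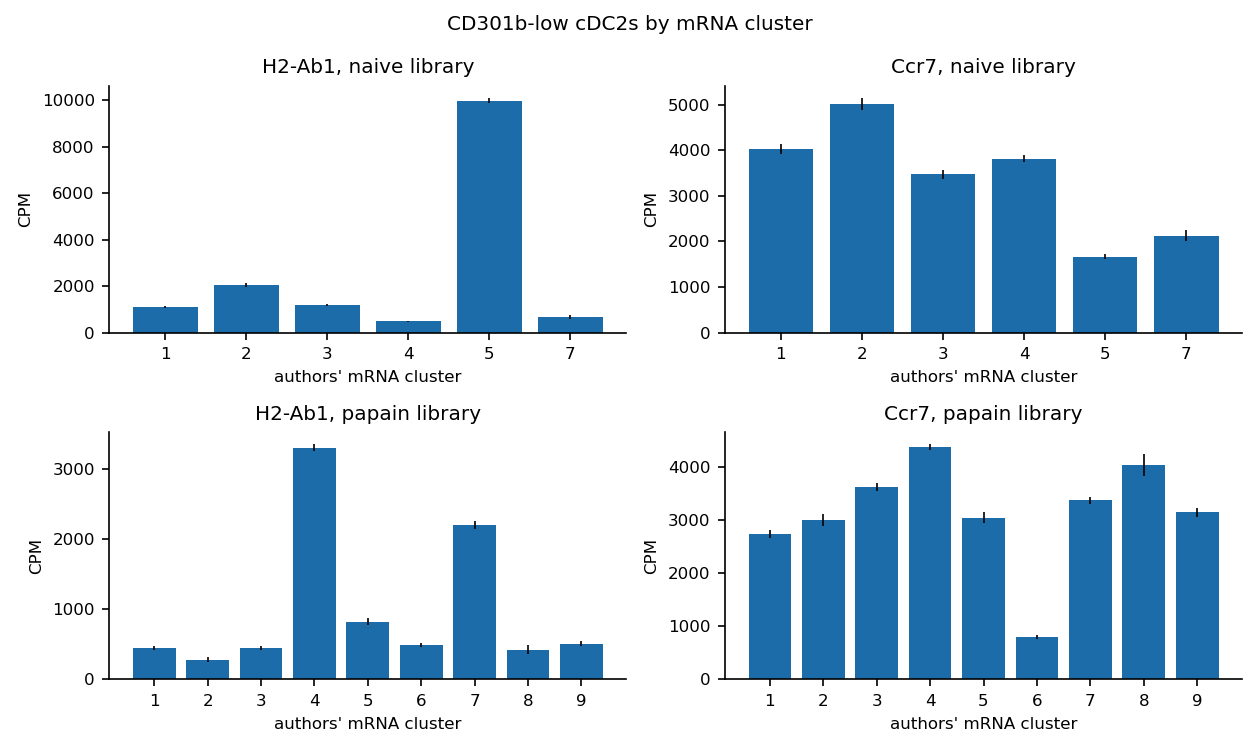
Level in CPM (y axes, from 0) of H2-Ab1 and Ccr7 in CD301b-low cDC2s by the authors' mRNA cluster (x axis), for clusters with at least 20 low cells, in the naive and the papain library; bars are the CPM of summed UMIs and lines are 95% Poisson intervals. Naive cluster 5 combines 9981 CPM of H2-Ab1 with 1662 CPM of Ccr7, and papain cluster 4 combines 3305 with 4376 CPM.

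Costimulatory genes were split in direction. Of the list of 19, naive low cells had 2 of 10 higher (Cd80 and Cd200) and 3 lower (Cd40, Cd274 and Tnfsf9) than high cells, with a median of 0.14 (5.77% and 5.47% of all genes). Papain low cells had 3 of 9 higher (Cd80, Icosl and Cd200) and 2 lower (Cd40 and Tnfsf9), with a median of 0.03 (2.75% and 3.81% of all genes). At equal cluster makeup 4 of 11 were higher and 2 lower in the naive library, and 0 of 9 passed in either direction in the papain library. Cd200, the ligand of an inhibitory receptor on myeloid cells, was at 97.0, 54.5 and 45.8 CPM in naive and at 263, 140 and 112 CPM in papain low, intermediate and high cells. Icosl, the ligand of ICOS on follicular helper and other T cells, was at 136, 132 and 114 CPM in naive cells and at 139, 78.5 and 71.5 CPM in papain cells. Tnfsf9, which encodes 4-1BBL, was lower in the low class, at 118, 145 and 207 CPM and at 100, 162 and 194 CPM. Cd274, encoding PD-L1, was at 146, 161 and 220 CPM and at 234, 246 and 280 CPM. Cd86, at 182, 140 and 123 CPM and at 259, 266 and 244 CPM, differed by less than 1.5-fold in both.

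Of 16 migration and homing genes over the floor, 7 were lower in the naive low cells and 1 higher (Itgb2), with a median of −0.48 (5.47% and 5.77% of all genes). In the papain library 2 of 13 were lower (Marcksl1 and Adam8) and 0 higher, with a median of −0.30 (3.81% and 2.75% of all genes). At equal cluster makeup 2 of 16 were lower in naive and 0 of 13 in papain cells. Ccr7 itself was at 3266, 3582 and 4053 CPM in naive and at 3276, 3096 and 3270 CPM in papain cells, a difference of under 1.5-fold in each. Fscn1 was at 1290, 1900 and 2167 CPM and at 2163, 2695 and 2828 CPM. Marcksl1, which belongs to the MARCKS family of actin-binding proteins, was at 788, 1136 and 1414 CPM and at 1173, 1557 and 1826 CPM.

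The chemokines split by gene. Ccl17 and Ccl22, ligands of CCR4 on Th2 and regulatory T cells, were lower in CD301b-low cells. Ccl17 was at 277 CPM (267 to 288) in low, 322 in intermediate and 418 CPM (406 to 430) in high naive cells, and at 385, 804 and 847 CPM in papain cells, a log2 ratio of −0.59 and −1.14. With cluster makeup equal these ratios were −0.23 and −0.51, both under 1.5-fold. Ccl22 was at 1271, 1600 and 2229 CPM and at 1398, 2117 and 2035 CPM, the latter difference falling short of 1.5-fold, and at equal makeup its ratio was −0.0070 in naive and 0.025 in papain cells. Ccl5 was at 6205, 5389 and 4775 CPM and at 7520, 7993 and 7514 CPM. Ccl4, an inflammatory chemokine, was at 205, 80.9 and 31.6 CPM in naive cells, mostly in cluster 5, and at 15.9 CPM in papain low cells. Over the list of 21, 5 of 13 genes were higher and 5 lower in naive low cells (5.77% and 5.47% of all genes), with a median of −0.31. In papain low cells 1 of 9 was higher and 4 lower (2.75% and 3.81% of all genes), with a median of −0.54, and at equal makeup 2 of 9 were higher and 1 lower.

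Among cytokine genes, Tnf and Csf1 were lower and Tgfb1 and Osm higher in low than in high cells of both libraries. Tnf was at 40.3, 64.7 and 87.6 CPM and at 19.7, 30.4 and 39.2 CPM. Csf1, the growth factor of macrophages, was at 22.3, 41.1 and 42.6 CPM and at 27.4, 68.0 and 89.0 CPM. Tgfb1 was at 61.9, 43.1 and 33.4 CPM and at 27.5, 19.8 and 17.9 CPM. Osm, an IL-6 family cytokine, was at 27.4, 16.4 and 16.6 CPM and at 32.5, 18.2 and 16.2 CPM. Il2 was near 4 CPM in every cDC2 class of both libraries, at 3.79 CPM (2.64 to 5.28) in naive and 4.10 CPM (3.22 to 5.15) in papain low cells. At this depth no difference in Il2 from CD301b-high cells was detectable, with a log2 ratio of −0.06 (−0.74 to 0.61) and −0.03 (−0.43 to 0.36). Il1b, at 645, 561 and 789 CPM and at 341, 311 and 454 CPM, differed by less than 1.5-fold from both other classes. Once cluster makeup was equal, the ratio of Tgfb1 was −0.26 in naive and 0.20 in papain cells, that of Csf1 −0.47 and −1.12, that of Tnf −1.15 and −0.45 and that of Osm 0.65 and 0.53.

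Genes of NF-kB feedback and CD40 signalling leaned low in naive CD301b-low cells. Of 28 genes over the floor 7 were lower and 0 higher (5.47% and 5.77% of all genes), with a median of −0.25. Among papain cells 4 were lower and 2 higher (3.81% and 2.75% of all genes), with a median of −0.13. Nfkbiz, an atypical IκB protein, was at 373, 520 and 682 CPM and at 218, 379 and 481 CPM. Tnfaip3, which encodes the feedback inhibitor A20, was at 553, 763 and 990 CPM and at 371, 580 and 719 CPM. At equal cluster makeup 4 of 28 were lower in naive and 1 in papain cells.

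Genes of cholesterol synthesis and handling were lower in naive CD301b-low cells, and fewer of them in papain cells. In naive low cells 10 of 14 genes were lower than in high cells and 0 higher, with a median of −0.78 (5.47% and 5.77% of all genes). In papain low cells 2 of 16 were lower (Insig1 and Stard4) and 0 higher, with a median of −0.25 (3.81% and 2.75% of all genes). In the naive library 4 of 13 were lower at equal cluster makeup and 5 of 14 without cluster 5. Hmgcs1, an early enzyme of the mevalonate pathway, was at 67.2, 102 and 132 CPM in naive and at 95.1, 97.9 and 122 CPM in papain cells. Stard4, which carries cholesterol between membranes, was at 21.6, 32.2 and 46.4 CPM and at 22.7, 34.6 and 43.3 CPM. Whether the ratios of the 2 libraries differ was not tested.

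Transcription factors of the DC lineage differed by gene rather than together. Of 24 over the floor, 4 were higher and 3 lower in naive low cells (5.77% and 5.47% of all genes), with a median of 0.06. In papain low cells 2 were higher and 2 lower (2.75% and 3.81% of all genes), with a median of 0.05. Runx3 was at 214, 111 and 93.6 CPM and at 118, 67.0 and 56.0 CPM, and Spib at 45.6, 34.6 and 25.5 CPM and at 65.3, 45.1 and 36.2 CPM. These 2 were higher in both libraries. Prdm1, which encodes Blimp-1, was lower at 23.8, 42.6 and 62.4 CPM and at 28.4, 33.6 and 52.3 CPM, as was Spic at 17.7, 27.9 and 34.8 CPM and at 36.1, 68.9 and 95 CPM. Irf4 was at 64.7, 54.7 and 47.6 CPM and at 73.0, 78.7 and 69.7 CPM, within 1.5-fold of the high class. Klf4, needed for Th2-priming cDC2s, was at 281, 213 and 181 CPM in naive and at 132, 102 and 106 CPM in papain cells. At equal cluster makeup the naive ratio of Klf4 was −0.43 in place of 0.64, that of Spib was 0.50 and 0.38, and that of Runx3 was 0.64 in naive and 0.29 in papain cells. Prdm1 was at −1.22 and −0.35.

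Markers of other cell types were measured beside these results, and their part in them was not tested. All 15 B cell markers were detected and summed to 124 CPM in naive and 41.9 CPM in papain low cells, against 28.9 and 9.51 CPM in high cells. The 17 T cell markers summed to 341 and 222 CPM against 171 and 134 CPM, with Foxp3 at 0 in papain low cells. The 12 NK and ILC markers summed to 176 and 165 CPM against 61.7 and 87.2 CPM, with Eomes at 0 in the naive and Ncr1, Klrb1c, Gzma and Gzmb at 0 in the papain low cells. The 13 monocyte and macrophage markers in the files summed to 203 and 61.6 CPM against 143 and 37.6 CPM. The 16 markers of plasmacytoid and transitional DCs in the files summed to 647 and 859 CPM against 584 and 723 CPM, with Dntt at 0 in naive low cells. The 12 cDC1 markers (519 and 568 CPM against 541 and 520 CPM) and the 10 LC markers (423 and 302 CPM against 570 and 463 CPM) did not have a higher sum in the low class in both libraries. Of 11 erythroid and stromal markers 4 were in the files, and they summed to 12.7 and 2.11 CPM. Without the cells that held a T or B cell UMI, the class II list had 8 of 12 genes higher in the naive library (median 0.94) and 7 of 10 in the papain library (median 1.30).

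Cd79b, a subunit of the B cell receptor, had a UMI in 11.1% (8.80 to 13.7) of the naive CD301b-low cells and in 8.16% (6.81 to 9.68) of the papain ones, against 2.40% and 1.11% of high cells and 0.909% and 1.36% of LCs. Intermediate cells had a Cd79b UMI in 2.73% and 2.08%, and cDC1s in 3.98% and 1.70%. Thinned to equal depth the shares were 7.26% and 5.59% in low against 1.36% and 0.554% in high cells. Of the 73 naive low cells with Cd79b, 4 also had Cd79a, its partner in B cells, and 35 had Ighm. Of the 120 papain low cells with Cd79b, 3 had Cd79a and 31 had Ighm. Most Cd79b-positive low cells therefore lacked a Cd79a UMI. Plac8 was in 12.9% of naive and 6.87% of papain low cells against 0.990% and 1.52% of high cells. Asprv1, an aspartic protease best known from skin, was in 8.51% and 16.6% of low against 4.67% and 4.63% of high cells, but cDC1s had it in 38.9% and 63.0%.

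After papain, 608 genes (12.2%) were at least 1.5-fold higher and 534 (10.7%) at least 1.5-fold lower in CD301b-low cDC2s than in the naive library, of 4977 genes. The counts were 570 (11.6%) and 427 (8.66%) in intermediate and 517 (10.6%) and 370 (7.58%) in high cells, with a median log2 ratio over all genes of 0.06, 0.08 and 0.10 in low, intermediate and high cells. These are the same 2 libraries, so the counts share whatever sets the libraries apart. Where lists are given below, the shares of all genes are those of the comparisons that kept every cluster.

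Immediate early and heat shock genes, which respond within minutes to stimulation and to tissue handling, were lower in papain CD301b-low cells. Of 26 over the floor 15 were lower and 0 higher (10.7% and 12.2% of all genes), with a median of −0.93. In high cells 10 of 25 were lower (7.58% of all genes), with a median of −0.44. Fos was at 1116 CPM in naive and 365 CPM in papain low cells, a log2 ratio of −1.61 (−1.66 to −1.57), against −1.09 in high cells. Nr4a1 was at 251 CPM in naive and 63.1 CPM in papain low cells, and Nr4a2 at 540 and 165 CPM. Ptgs2, which encodes the inducible cyclooxygenase, was at 303 and 53.9 CPM in low cells, a log2 ratio of −2.49 (−2.60 to −2.38), and at 341 and 99.7 CPM in high cells. Egr1 stood at 200 CPM in naive and 74.7 CPM in papain low cells and at 244 and 190 CPM in high cells. Without naive cluster 5, 11 of 24 genes of the list were lower, with a median of −0.54, and the log2 ratio of Fos was −1.10 and that of Nr4a1 −0.97.

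Interferon-stimulated genes were higher in papain low cells. Of 16 over the floor 10 were higher and 0 lower (12.2% and 10.7% of all genes), with a median of 0.77. In high cells 6 of 14 were higher and 1 lower (10.6% and 7.58% of all genes), with a median of 0.49. Isg15, a ubiquitin-like protein, was at 45.2 CPM in naive and 261 CPM in papain low cells, a log2 ratio of 2.53 (2.39 to 2.68), against 47.9 and 223 CPM in high cells. Ifi27l2a was at 98.5 and 359 CPM in low cells, and Psme2, a proteasome activator subunit, at 88.1 and 302 CPM. Without naive cluster 5, 9 of 15 were higher and 1 lower, with a median of 0.81.

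Other genes that were higher in papain CD301b-low cells included Cd1d1, which encodes the lipid-presenting molecule CD1d. It was at 23.2 CPM (20.2 to 26.5) in naive and 138 CPM (133 to 144) in papain low cells, a log2 ratio of 2.58, and at 32.8 and 55.4 CPM in high cells, a log2 ratio of 0.75. Tubb2b, a β-tubulin whose reads may be split with Tubb2a, was at 43.8 and 219 CPM in low and at 41.5 and 78.7 CPM in high cells. Fabp5, a fatty acid-binding protein, was at 1207 and 4562 CPM in low and at 1305 and 3100 CPM in high cells, and its relative Fabp4 at 36.6 and 141 CPM in low cells. Anxa2 was at 324 and 964 CPM in low and at 457 and 726 CPM in high cells. Tnfrsf4, which encodes OX40, was at 88.5 and 243 CPM in low and at 93.8 and 137 CPM in high cells. Cd200 was at 97.0 and 263 CPM and Cd40 at 206 and 430 CPM in low cells. Il2ra, the α chain of the IL-2 receptor, was at 62.4 and 149 CPM in low and at 52.6 and 118 CPM in high cells. Tubb2a, Mrpl38, Ube2l6, Serpinb6b and Gnl2 completed the 15 genes of this end, with log2 ratios from 1.43 to 1.68.

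The genes lowest after papain were Plbd1 (118 CPM in naive and 9.75 CPM in papain cells), Ptgs2, Rasgef1b (106 and 22.8 CPM), Elmsan1, Wfdc17 (81.1 and 19.8 CPM), Nr4a1, Eprs, Slc38a1, Ccrl2 (240 and 72.2 CPM), Nr4a2, Prdx6, Ly6e, Fos, Plek and Clec7a (189 and 64.5 CPM). Clec7a encodes the β-glucan receptor dectin-1. Without that cluster Plbd1 was at −0.12 in place of −3.60, and Wfdc17 (0.94), Clec7a (0.43), H2-Ab1 (0.55), H2-DMb2 (0.85), Sirpa (0.30) and Mgl2 (1.47) turned from lower to higher.

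MHC class II genes were lower in papain than in naive cells of all 3 classes. In low cells 7 of 12 were lower and 1 higher (Lgmn), with a median of −0.72 (10.7% and 12.2% of all genes). In high cells 7 of 10 were lower and 1 higher (Lgmn), with a median of −1.26 (7.58% and 10.6% of all genes). H2-Ab1 had a log2 ratio of −1.21 (−1.23 to −1.18) in low, −1.90 in intermediate and −2.01 (−2.04 to −1.98) in high cells. Without naive cluster 5 the list in low cells had 5 of 11 genes higher and 0 lower, with a median of 0.56. The shares of all genes above belong to the comparison that kept this cluster, so this count has no background beside it. That cluster held the class II-rich naive cells and was left out on the naive side only. What set the direction of the list was not tested. Lgmn, the lysosomal protease legumain, was at 94.2 and 182 CPM in low cells and at 106 and 211 CPM in high cells.

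**Figure D5:**
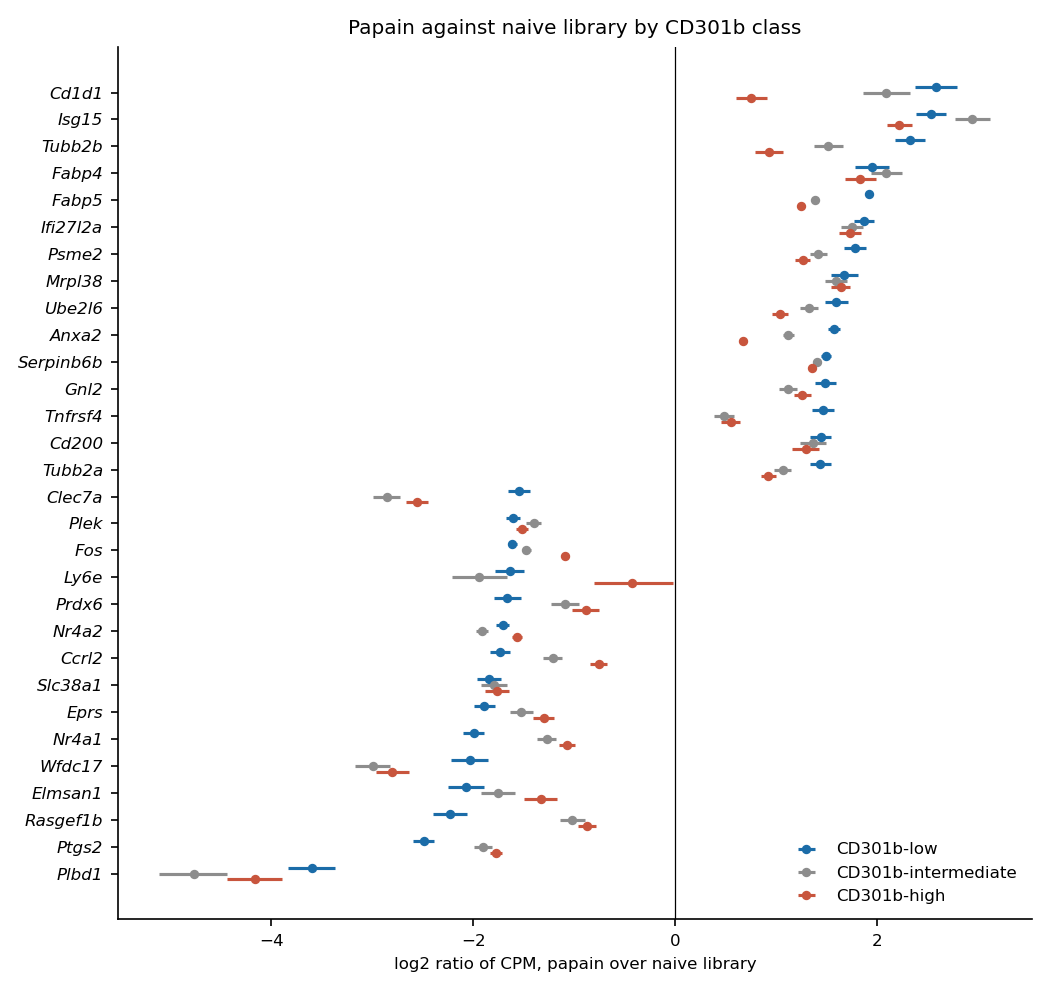
Log2 ratio of CPM in the papain over the naive library (x axis) for the 30 genes named by rule in CD301b-low cDC2s, with the same ratio in CD301b-intermediate and high cDC2s; points are ratios between the 2 libraries and bars are 95% counting intervals. Cd1d1 lies at 2.58 in low, 2.09 in intermediate and 0.75 in high cells, and Rasgef1b at −2.23, −1.02 and −0.87.

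The classes differed in how far some genes stood apart between the libraries. Mki67, a marker of cycling cells, was at 45.6 CPM (41.4 to 50.2) in naive and 32.0 CPM (29.4 to 34.7) in papain low cells, while it was at 51.2 and 83.9 CPM in intermediate and at 72.2 and 117 CPM in high cells. Thinned, 14.8% of naive and 13.3% of papain low cells had an Mki67 UMI (18.7% and 16.2% before), against 29.4% and 42.8% of high cells (37.6% and 55.2% before), 6.29% and 19.7% of LCs and 10.4% and 7.70% of cDC1s. Against high cells, naive low cells had 4 of 11 cell cycle genes higher (Ccnd1, Ccnd2, Cdk4 and Stmn1) and 2 lower (Cdkn1a and Mki67). The median was 0.21 (5.77% and 5.47% of all genes). Papain low cells had 2 of 10 higher (Ccnd2 and Cdk6) and the same 2 lower, with a median of −0.08 (2.75% and 3.81% of all genes). No level of cycling is read from Mki67 alone. Gsn, the actin-severing protein gelsolin, was at 72.7 and 44.9 CPM in low and at 56.3 and 77.1 CPM in high cells. Lad1 was at 58.2 and 69.7 CPM in low and at 126 and 77.1 CPM in high cells, so that the classes ended close to each other after papain. H2-Eb2 was at 129 and 118 CPM in low and at 144 and 65.0 CPM in high cells. Rasgef1b, Egr1, Odc1 and Ccrl2 were further down, and Cd1d1, Tubb2b, H2-DMb2 and Clec7a further up or less far down, in low than in high cells. With 1 library per condition, none of these differences was tested.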

How the data were processed

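Each cell came from 1 of 2 CITEseq libraries, which the labels name as naive and papain, and the class of each cell was taken as deposited. Per the submitters' processing notes the reads were processed with Cell Ranger 3.0.1 and Partek Flow on mm10. The authors deposited mRNA as log2 (CPM + 1) and antibodies as a natural log of centred counts, with a count of expressed genes and a total antibody count per cell. The deposited mitochondrial percent and the deposited total are a percent and a sum (score) of log2 values, and neither was used. UMIs were recovered from the log2 values, whole within 0.02 UMI for 100% of values up to 50 UMI, and the recovered numbers of detected genes equalled the deposited counts in 3471 of 3471 and 7596 of 7596 cells. The 18049 listed genes held a share of 0.810 to 0.974 of a naive and 0.909 to 0.979 of a papain cell's UMIs. CD301b-low cells held 3659 to 46485 naive and 2882 to 40511 papain UMIs. UMIs were summed per class and library, with exact Poisson intervals for levels, exact conditional intervals for ratios and Clopper-Pearson intervals for shares, each at 95%. With 1 library per condition no test was made. A gene counted as higher or lower at 1.5-fold or more with a mean of at least 20 CPM over both groups.

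Named were the 15 genes per direction with the largest ratio of low to high in the library where it was smaller, the 15 per direction between papain and naive (floor 50 CPM), and the 6 per direction whose papain ratios in low and high cells differed most. Each had a UMI in at least 5% of cells and no more than 10% of its UMIs in 1 cell, and mitochondrial, ribosomal and unnamed genes were left out. The 28 gene lists held 543 genes, of which 515 were in the files. The members and the lists were chosen with earlier results of these data known. Alternatives changed the fold, floor, scaling, pseudocount, cell filters, class borders and cluster makeup. The ratios and intervals were tested on simulated data with known folds. Python 3.11.15 with numpy 2.4.6, scipy 1.17.1 and pandas 2.3.3 was used.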

Additional observations from a re-analysis of the deposited data

Results flagged for a closer look

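For 3 of the 12 genes named for the difference between their papain ratios in both classes, the ratio of papain to naive had opposite signs in CD301b-low and CD301b-high cDC2s, with both counting intervals on their own side of 0. For Mki67 the log2 ratio was −0.51 (−0.70 to −0.33) in low and 0.70 (0.59 to 0.81) in high cells, a difference of −1.21. For Gsn it was −0.69 (−0.84 to −0.55) and 0.45 (0.33 to 0.58), a difference of −1.15. For Lad1 it was 0.26 (0.11 to 0.41) and −0.71 (−0.80 to −0.62), a difference of 0.97. With 1 library per condition these differences were not tested. Without naive mRNA cluster 5, the log2 ratio in low cells was −0.09 for Mki67, −0.02 for Gsn and −0.12 for Lad1.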

How the results depend on the processing

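No paired analysis was possible because each condition is a single library without a replicate number, and leaving out a replicate was not possible with 1 library per condition. Of 1865 alternative values for 211 results, 1184 moved by less than their error or stayed within 1.5 times the count, 671 moved further and 10 reversed, and the cause was not tested. Requiring 2-fold gave, as higher and lower genes, 89 and 39 (low against high, naive), 39 and 40 (papain), 36 and 5 (low against intermediate, naive), 26 and 9 (papain), and 136 and 218 (papain against naive). A floor of 5 CPM gave 998 and 433, 375 and 364, 571 and 210, 228 and 168, and 919 and 1391 in the same order. A pseudocount of 10 CPM gave 171 higher (low against high, naive), 87 and 124 (papain), 87 and 41 (low against intermediate, naive) and 46 lower (papain). Classes cut into equal parts by CD301b gave 53 and 47 for low against intermediate in papain. Without the largest mRNA cluster of the class, 88 genes were higher than in high cells (papain), and 232 (naive) and 35 (papain) than in intermediate cells. Equal makeup and the removal of cluster 5 were chosen after seeing the data. Equal mRNA cluster makeup gave 155 and 145 (low against high, naive), 45 and 53 (papain), 73 higher (low against intermediate, naive), and 17 and 13 (papain). Without naive mRNA cluster 5, low against intermediate cells gave 83 and 52, and 351 genes were lower after papain. Among cDC2s with both kinds of value, 32.5% of the naive ones were CD301b-low. Among ratios of at least 1.5-fold, the reversed ones were those of H2-DMb1 (−0.042, low against high, naive, equal makeup), of Mgl2 in papain low against intermediate cells (−0.43 with classes of equal size, −0.85 at equal makeup), of Ccnd2 between papain and naive without the largest cluster (−0.56), and, without naive cluster 5, of Wfdc17 (0.94), Clec7a (0.43), H2-DMb2 (0.85), Sirpa (0.30), H2-Ab1 (0.55) and Mgl2 (1.47) between papain and naive. Sign changes of smaller ratios, such as that of Lad1 between papain and naive (0.26, and −0.12 without cluster 5), were not counted as reversed. Of 129 log2 ratios of at least 1.5-fold between classes, 80 still reached it at equal makeup. Genes under the floor, Il2 among them, were limited by depth.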

Other observations

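Genes of monocyte-like and cDC2B cells were split in CD301b-low cDC2s. Against high cells 6 of 23 were higher in the naive library (Lyz1, Ms4a6c, Plbd1, Ifitm3, Apoe and Fn1) and 2 lower (Cd14 and Ccl9), with a median log2 ratio of 0.14 (5.77% and 5.47% of all genes). At equal mRNA cluster makeup, chosen after the data were seen, 2 of 23 were higher and 8 lower, with a median of −0.34. In the papain library 1 of 14 was higher (Lyz2) and 3 lower, with a median of −0.03 (2.75% and 3.81% of all genes). Lyz2, which encodes lysozyme, was at 650, 672 and 552 CPM in naive low, intermediate and high cells and at 79.4, 7.79 and 13.7 CPM in papain cells. In papain low cells 1 cell held 43.4% of the Lyz2 UMIs, and 4.90% of low against 8.37% of high cells had one (3.76% and 4.95% thinned), so no higher level over the class is read from it. Of 6 Notch and cDC2A genes over the floor in the naive library, Cd8a and Ltb were higher and Jag1 lower. Of all genes 5.77% were higher and 5.47% lower, and the median of the list was 0.0071. Of 5 in the papain library Esam was higher and Jag1 lower. Of all genes 2.75% were higher and 3.81% lower there, and the median of the list was −0.019. At equal makeup the papain ratio of Esam was 0.40, under 1.5-fold, and that of Cd8a was 2.48 in naive and 0.76 in papain cells. Cd8a, the α chain of CD8, was at 67.5, 39.3 and 23.7 CPM in naive and at 30.0, 12 and 7.81 CPM in papain cells. The CD8a antibody was also higher in low than in high cells, as were the XCR1, CD103, Ly-6C and CD64 antibodies. Esam, an adhesion molecule of splenic cDC2s, was at 12.5, 9.48 and 11.0 CPM in naive and at 30.8, 18.9 and 18.7 CPM in papain cells.

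Genes of the BCL2 family and its regulators were mostly within 1.5-fold of the high class, with 0 of 16 higher and 3 lower (Bak1, Birc3 and Cflar) in naive low cells (5.77% and 5.47% of all genes). Between papain and naive low cells, 5 of 17 were higher (Bcl2l1, Bcl2a1a, Bcl2a1b, Bcl2a1d and Bak1) and 1 lower (Pmaip1), with a median of 0.32 (12.2% and 10.7% of all genes). The 3 Bcl2a1 genes are near-identical copies whose reads may be split. Among 22 receptors, signalling genes and targets of type 2 cytokines over the floor, 3 were higher in papain than in naive low cells (Il2ra, Socs2 and Tnfrsf4) and 1 lower (Crlf2), where 12.2% of all genes were higher and 10.7% lower, so the count higher is near the background. Socs2, a feedback inhibitor of JAK and STAT signalling, was at 414 CPM in naive and 866 CPM in papain low cells, against 631 and 897 CPM in high cells.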
